A study of Gallus gallus with 6 samples.

Results

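Ribosome assembly and RNA polymerase genes were followed in whole hearts of chick embryos after banding of the outflow tract (OFT). The set was defined by gene name, with earlier results of these data known. It held factors that build the small and large ribosomal subunits, small nucleolar ribonucleoprotein (RNP) proteins, abundant nucleolar proteins and polymerase subunits. It comprised 32 of the 6542 gene symbols measured, listed as 35 RefSeq transcripts. PNO1 and LLPH stand in it beside other factors of ribosome assembly. The study had already singled out both genes as different on the same hearts, so their difference is given as a description.

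Hearts were taken at Hamburger and Hamilton stage HH29 from 3 OFT-banded embryos, in which a nylon suture had been knotted around the OFT at HH21, and from 3 sham embryos, in which the suture was passed through and removed at once. All were embryos of the Dekalb white strain, each library came from 1 whole heart, and globin transcripts were depleted in every library. Values are given for OFT-banded hearts 6, 11 and 17 and then for sham hearts 38, 48 and 42, after the numbers in the deposited column names. Values are reads per 1000 bases of transcript and 1000000 reads (RPKM), at an estimated depth of 21.2 (heart 42) to 40.9 (heart 11) times 1000000 reads per heart. The study prints values of these hearts per fragment (FPKM), so a read here can stand for a pair of reads. Defining cardiomyocyte genes were abundant in all 6 hearts, with a summed level of 58139 to 64020 RPKM in OFT-banded and 45399 to 54724 RPKM in sham hearts over 7 genes. In whole hearts, fewer cells of a type and less RNA per cell cannot be told apart.

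Ribosomes are built in the nucleolus. RNA polymerase I copies the ribosomal DNA into a long precursor, polymerase III supplies the small ribosomal RNA of the large subunit, and polymerase II makes the mRNAs of ribosomal proteins and assembly factors. Small nucleolar RNPs then modify the precursor, the small subunit processome and a separate set of large subunit factors fold and cut it, and the last factors leave in the cytoplasm. The output of this pathway sets how fast a cell can make protein, and in cardiomyocytes it is known to increase when the muscle grows under load.

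A transcript was tested where its mean over the 6 hearts was at least 1 RPKM, which held for 30 of the 35 transcripts (30 genes). The groups were compared by limma on log2(RPKM + 1), with p-values adjusted over all 4726 tested transcripts, and fold changes below are differences on that scale, OFT-banded minus sham. No transcript passed the adjusted threshold of 0.05, neither among the 30 genes nor among all tested transcripts (0% called). The study's own test, DESeq, did call PNO1, LLPH and further genes different on the same hearts after correction. The absence of calls here is thus a result of the limma comparison, and the reason for the different outcome was not tested. At an unadjusted p under 0.05, 155 of all tested transcripts were higher (3.28%) and 250 were lower (5.29%). Of the 30 genes, 3 were higher at this level (PNO1, LLPH and POLR2F) and none was lower. Without PNO1 and LLPH this was 1 of 28, near the share over all tested transcripts.

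By value, 22 of the 30 genes (73.3%) were higher in OFT-banded hearts, beside 36.8% of all tested transcripts, and 8 were lower, where 63.2% of all were. The median log2 fold change was 0.08 over the 30 genes and -0.07 over all tested transcripts. The scaling between hearts moved these values, to 26 genes higher at a median of 0.14 with median-ratio scaling (48.8% of all higher) and to 18 genes higher at a median of 0.0073 with every heart at the same sum and the globin genes left out (26.0% of all higher). Without PNO1 and LLPH, 20 of 28 were higher. All 3 OFT-banded hearts lay above all 3 sham hearts in 6 genes, namely PNO1, LLPH, POLR2F, TSR3, MRTO4 and UTP15, beside 5.23% of all tested transcripts, and in none did all OFT-banded hearts lie below, beside 11% of all. Without PNO1 and LLPH, which the study had singled out on these hearts, the groups were apart in 4 of 28. Without heart 17 the count over the 30 genes was 11, beside 9.75% of all tested transcripts. Without heart 6, 17 of the 30 genes were higher (56.7%), beside 44.1% of all tested transcripts. Without hearts 6 and 42, a pair picked with the values in view, 17 were again higher, beside 50% of all.

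**Figure D1:**
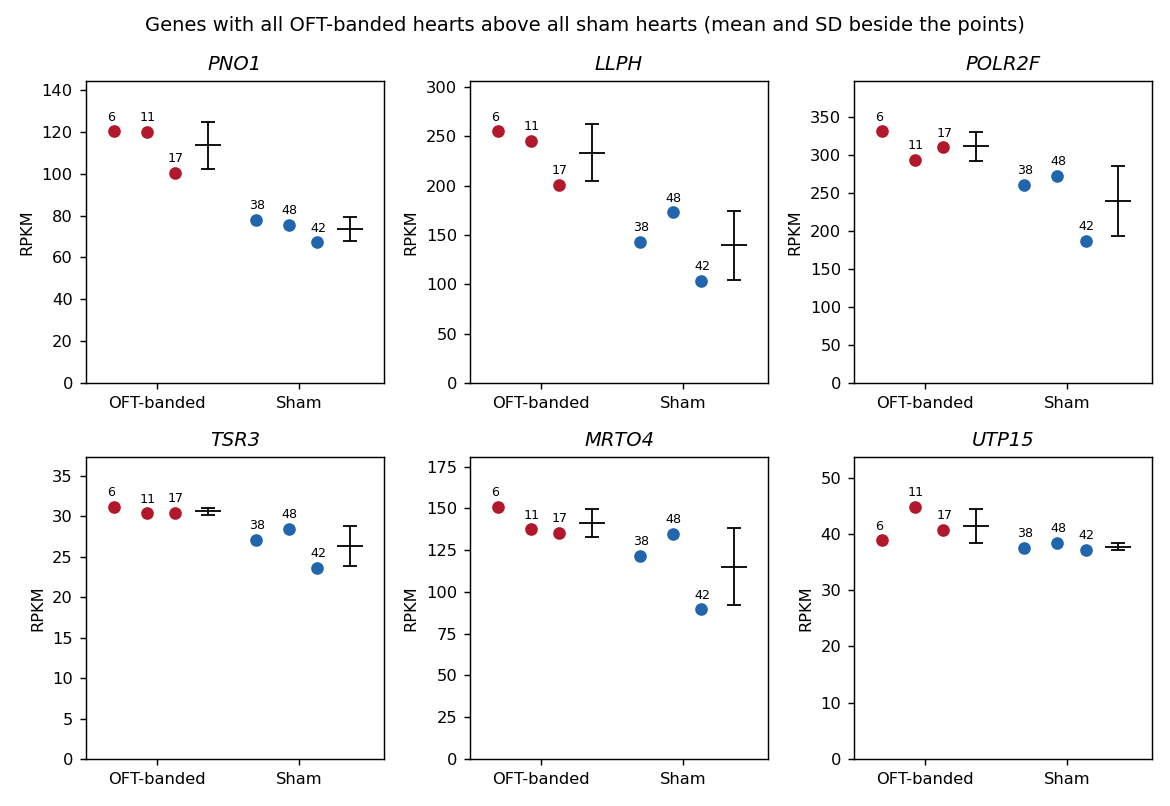
RPKM (vertical axis, from 0) in each heart for the 6 genes whose groups did not overlap. Points are single hearts with their numbers, OFT-banded in red and sham in blue, and the bar beside each group is the mean with its SD (n = 3). PNO1 and LLPH show the widest gaps, and heart 42 is the lowest sham heart in all 6 panels.

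The small subunit factors were led by PNO1 (NM_001079490), an RNA-binding protein that holds the nuclease NOB1 in place on the maturing small subunit. PNO1 was at 120.1, 119.7 and 100.4 RPKM in OFT-banded hearts, against 77.8, 75.5 and 67.2 RPKM in sham hearts. The groups were well apart, the lowest OFT-banded heart (17) being above the highest sham heart (38). The mean was 113 ± 11.3 RPKM in OFT-banded and 73.5 ± 5.59 RPKM in sham hearts (SD, n = 3 each), a ratio of 1.54 and a log2 fold change of 0.62 (standard error, SE, 0.10). This fold change stayed between 0.55 and 0.70 when each heart was left out in turn. Set against the geometric mean of the other 8 tested small subunit genes in the same heart, a measure that no scaling between hearts can move, PNO1 was 2.51, 2.32 and 2.00 times as abundant in OFT-banded hearts, against 1.57, 1.56 and 1.41 times in sham hearts. On this measure too, the groups did not overlap.

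TSR3, which places a modified base in the small subunit RNA at a late step, came next. TSR3 was at 31.2, 30.4 and 30.4 RPKM in OFT-banded hearts, against 27.1, 28.4 and 23.7 RPKM in sham hearts, with hearts 42 and 38 low and no overlap. The log2 fold change was 0.21 (SE 0.10, unadjusted p = 0.0729, limma adjusted p = 0.543). UTP15, a processome subunit that also bears on transcription of the ribosomal DNA and that is named here after its values were seen, was at 38.8, 44.8 and 40.7 RPKM in OFT-banded hearts, against 37.6, 38.4 and 37.2 RPKM in sham hearts. Its groups were only just apart, hearts 6 and 48 being nearly level.

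WDR43, another processome subunit, was the small subunit gene furthest in the other direction. It was at 38.5, 60.4 and 56.1 RPKM in OFT-banded hearts, against 54.4, 60.6 and 65.0 RPKM in sham hearts. The groups overlapped, heart 6 alone standing low, and the log2 fold change was -0.23 (SE 0.17, limma adjusted p = 0.618), or -0.04 without that heart. IMP4, which joins the small nucleolar RNA U3 to the precursor, was at 110.4 ± 6 RPKM in OFT-banded and 116 ± 9.83 RPKM in sham hearts (SD, n = 3 each), and its log2 fold change of -0.06 turned to 0.0025 with median-ratio scaling. Processome subunit UTP6, the steadiest of the 30 genes, lay between 65.6 and 73.1 RPKM over all 6 hearts, a coefficient of variation of 4.19%. BMS1, the GTPase of the processome, lay between 29.6 and 39.5 RPKM, RRP12, an export and maturation factor, between 25.9 and 36.0 RPKM, and RRP7A between 56.6 and 91.1 RPKM, all with overlapping groups. In RRP7A the lowest and the highest heart, 11 and 6, were both OFT-banded. Of the 9 tested small subunit genes 7 were higher by value, with a median log2 fold change of 0.08. That median was 0.16 without heart 6, 0.04 without heart 11 and -7.7e-05 without heart 48.

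Among the large subunit factors LLPH (NM_001079501), whose human protein is found in early precursors of the large subunit, differed the most. LLPH was at 255, 245 and 200.3 RPKM in OFT-banded hearts, against 143, 173 and 103 RPKM in sham hearts. No heart of one group reached the other, and heart 42 was the lowest. The mean was 233 ± 29 RPKM in OFT-banded and 139.6 ± 34.8 RPKM in sham hearts (SD, n = 3 each), a ratio of 1.67 and a log2 fold change of 0.76 (SE 0.19), the largest of the 30 genes. Without heart 42 it was 0.56. Against the geometric mean of the other 6 tested large subunit genes in the same heart, LLPH was 3.45, 3.34 and 2.91 times as abundant in OFT-banded hearts, against 1.91, 2.45 and 1.57 times in sham hearts.

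MRTO4, a protein that resembles the ribosomal stalk protein P0 and holds its place on the precursor, was at 151, 137 and 136 RPKM in OFT-banded hearts, against 121, 135 and 89.5 RPKM in sham hearts. The groups were narrowly apart, hearts 17 and 48 being nearly level, and heart 42 was far below the rest. The log2 fold change was 0.31 (SE 0.15, unadjusted p = 0.0769, limma adjusted p = 0.543), and 0.14 without heart 42. NIP7, a factor that binds the precursor RNA, lay between 184 and 246 RPKM, BRIX1, an early-acting nucleolar factor, between 84.5 and 103 RPKM, and LSG1, a cytoplasmic GTPase that helps release the export adaptor NMD3, between 30.4 and 34.3 RPKM, each with overlapping groups. SBDS, which acts in the release of the anti-association factor EIF6, was at 51.6, 60.6 and 56.2 RPKM in OFT-banded hearts, against 64.0, 54.5 and 63.5 RPKM in sham hearts. The log2 fold change of SBDS was -0.11 (SE 0.10, limma adjusted p = 0.675) and that of RRP1B, a nucleolar factor of the large subunit, -0.08 (SE 0.10, limma adjusted p = 0.748). Of the 7 tested large subunit genes 4 were higher by value, and their median log2 fold change of 0.02 turned to -0.01 with each heart rescaled to the same sum and to -0.05 with the same sum and the globin genes left out.

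**Figure D2:**
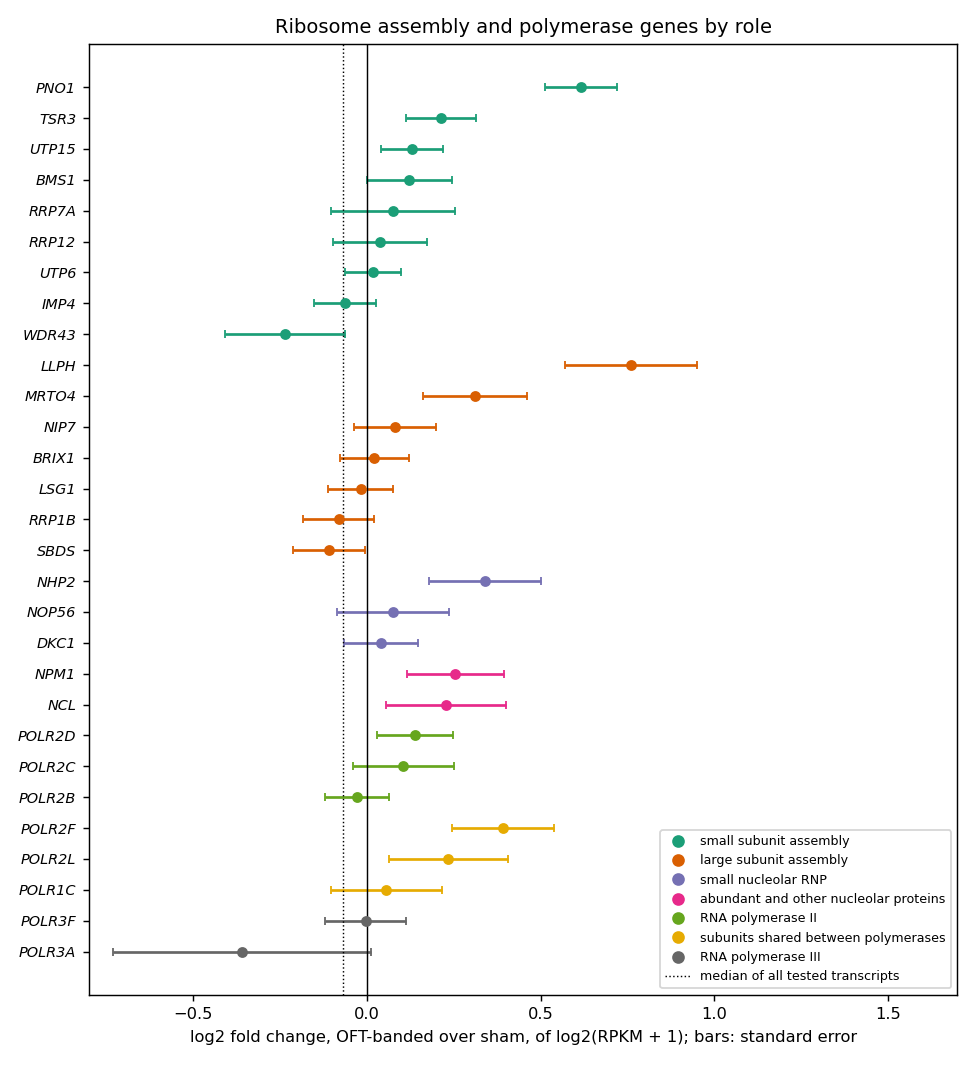
Log2 fold change, OFT-banded over sham, of log2(RPKM + 1) for 29 of the 30 tested genes (horizontal axis), grouped and coloured by role, with the standard error as bars and the median of all tested transcripts (-0.07) as a dotted line. PNO1 (0.62) and LLPH (0.76) stand furthest to the right, and 21 of the 29 points lie to the right of 0.

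Small nucleolar RNPs guide chemical changes of ribosomal RNA, with box H/ACA particles turning uridine into pseudouridine and box C/D particles adding methyl groups to ribose. NHP2, a core protein of the H/ACA particle, was at 247, 189 and 170.3 RPKM in OFT-banded hearts, against 184, 152 and 139.6 RPKM in sham hearts. Heart 6 stood highest and heart 42 lowest, and hearts 17 and 38 overlapped. The log2 fold change was 0.34 (SE 0.16, unadjusted p = 0.0723, limma adjusted p = 0.543), and 0.19 without heart 6. DKC1, the pseudouridine synthase of the same particle, did not show the same order. It was at 134, 122 and 114 RPKM in OFT-banded hearts, against 119.5, 107 and 134 RPKM in sham hearts, so that the high OFT-banded heart 6 and the high sham heart 42 were level. The ratio of NHP2 to DKC1 within a heart was 1.85, 1.55 and 1.49 in OFT-banded hearts, against 1.54, 1.42 and 1.04 in sham hearts (two-sided exact permutation test p = 0.2, adjusted p = 0.56 over 7 such ratios, all picked with the values in view). NOP56, a core protein of the C/D particle, was at 220.0, 186 and 144 RPKM in OFT-banded hearts, against 179, 185 and 152 RPKM in sham hearts. The highest and the lowest heart of NOP56 were both OFT-banded, and its log2 fold change of 0.08 (SE 0.16, limma adjusted p = 0.853) was -0.07 without heart 6.

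NPM1 and NCL, the abundant nucleolar proteins nucleophosmin and nucleolin, were the 2 most abundant of the 30 genes. NPM1 was at 3100.2, 2805 and 2581 RPKM in OFT-banded hearts, against 2571, 2605 and 1972 RPKM in sham hearts. Hearts 17, 38 and 48 were nearly level, while heart 6 was high and heart 42 low. The log2 fold change of NPM1 was 0.25 (SE 0.14, limma adjusted p = 0.558), and 0.12 without heart 42. NCL was at 755, 715 and 624 RPKM in OFT-banded hearts, against 621, 733 and 460.1 RPKM in sham hearts, again with heart 42 at the bottom and with overlapping groups. Its log2 fold change was 0.23 (SE 0.17, limma adjusted p = 0.626), and 0.04 without heart 42. The ratio of NPM1 to NCL within a heart was lowest in heart 48 (3.55) and lay between 3.92 and 4.29 in the other hearts. It averaged 4.05 ± 0.116 in OFT-banded hearts and 3.99 ± 0.388 in sham hearts (SD over 3 hearts a group, two-sided exact permutation test p = 1).

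Of the polymerase subunits 9 were tested, among them 3 particular to RNA polymerase II, 3 shared between polymerases and 3 particular to RNA polymerase III. POLR1A and POLR2A, the catalytic subunits of RNA polymerases I and II, were not analysed here. POLR2F, a small subunit of all nuclear RNA polymerases, differed the most. POLR2F was at 331, 293 and 309.9 RPKM in OFT-banded hearts, against 260.5, 272 and 187 RPKM in sham hearts. The groups did not overlap, and heart 42 was well below hearts 38 and 48. The mean was 311 ± 18.9 RPKM in OFT-banded and 239.9 ± 46.1 RPKM in sham hearts (SD, n = 3 each), with a log2 fold change of 0.39 (SE 0.15, unadjusted p = 0.0314, limma adjusted p = 0.543). It was 0.22 without heart 42.

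POLR2L, the other small subunit shared by all 3 polymerases among those tested, was at 477, 416 and 358 RPKM in OFT-banded hearts, against 425, 365 and 281 RPKM in sham hearts. The groups overlapped, with heart 6 highest and heart 42 lowest, and the log2 fold change was 0.23 (SE 0.17, limma adjusted p = 0.617), and 0.07 without heart 42. POLR1C, shared by polymerases I and III, was far lower, at 3.37, 2.71 and 3.23 RPKM in OFT-banded hearts, against 3.12, 2.79 and 2.91 RPKM in sham hearts. Its groups overlapped at a log2 fold change of 0.06 (SE 0.16, limma adjusted p = 0.887). A further transcript of POLR1C is listed at 0, and whether the low level reflects how shared reads were counted was not tested.

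POLR2B, the second largest subunit of RNA polymerase II, had a difference near 0. It was at 73.9, 77.3 and 78.2 RPKM in OFT-banded hearts, against 71.9, 86.8 and 76.0 RPKM in sham hearts. The sham hearts enclosed the OFT-banded hearts, and the log2 fold change of -0.03 (SE 0.09, limma adjusted p = 0.903) turned to 0.04 with median-ratio scaling. POLR2C, which forms the assembly platform of the enzyme with another subunit, was at 199.9, 148 and 145 RPKM in OFT-banded hearts, against 171, 141 and 143 RPKM in sham hearts. POLR2D, of the stalk that binds the emerging RNA, was at 115, 104 and 90.5 RPKM in OFT-banded hearts, against 99.8, 93.9 and 86.8 RPKM in sham hearts. Hearts 6 and 38 were the highest of their groups in both genes, and the groups overlapped. The log2 fold changes were 0.11 for POLR2C (SE 0.15, limma adjusted p = 0.763) and 0.14 for POLR2D (SE 0.11, limma adjusted p = 0.637).

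Subunits of the same enzyme thus lay at different levels per length. Within a heart, POLR2F was 4.48, 3.79 and 3.96 times as abundant as POLR2B in OFT-banded hearts, against 3.62, 3.14 and 2.46 times in sham hearts, with no overlap (two-sided exact permutation test p = 0.1, the smallest that 3 hearts against 3 can give, adjusted p = 0.56 over 7 ratios). POLR2L was 5.47 ± 0.946 times as abundant as POLR2B in OFT-banded hearts and 4.60 ± 1.16 times in sham hearts (SD over 3 hearts a group, two-sided exact permutation test p = 0.4, adjusted p = 0.56).

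Of the RNA polymerase III subunits, POLR3A, the catalytic subunit, was the lowest by mean level and the most variable of the 30 genes. POLR3A was at 0.90, 3.25 and 3.74 RPKM in OFT-banded hearts, against 3.16, 2.56 and 4.46 RPKM in sham hearts. Heart 6 alone was low and the remaining hearts overlapped. The log2 fold change was -0.36 (SE 0.37, limma adjusted p = 0.698), and it turned to 0.05 without heart 6. POLR3F, another subunit of this enzyme, lay between 40.9 and 51.6 RPKM, with overlapping groups. Its log2 fold change was -0.0033 (SE 0.12, limma adjusted p = 0.995), which turned to 0.06 with median-ratio scaling.

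The 5 transcripts below the filter belonged to 3 genes. POLR2H, a further subunit of all 3 polymerases, is listed as 3 transcripts, each at 0 in all 6 hearts, and POLR1C has a second transcript at 0. NOL11, a processome subunit, is listed at 0 in 5 hearts and at 0.01 RPKM in heart 17. Every cell needs these genes, so a listed 0 is not read as absence here. Of the 252 symbols with more than 1 transcript in the table, 73.8% summed to under 1 RPKM, against 26.1% of the 6290 symbols with a single transcript. How the counting treated reads shared by transcripts was not tested.

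**Figure D3:**
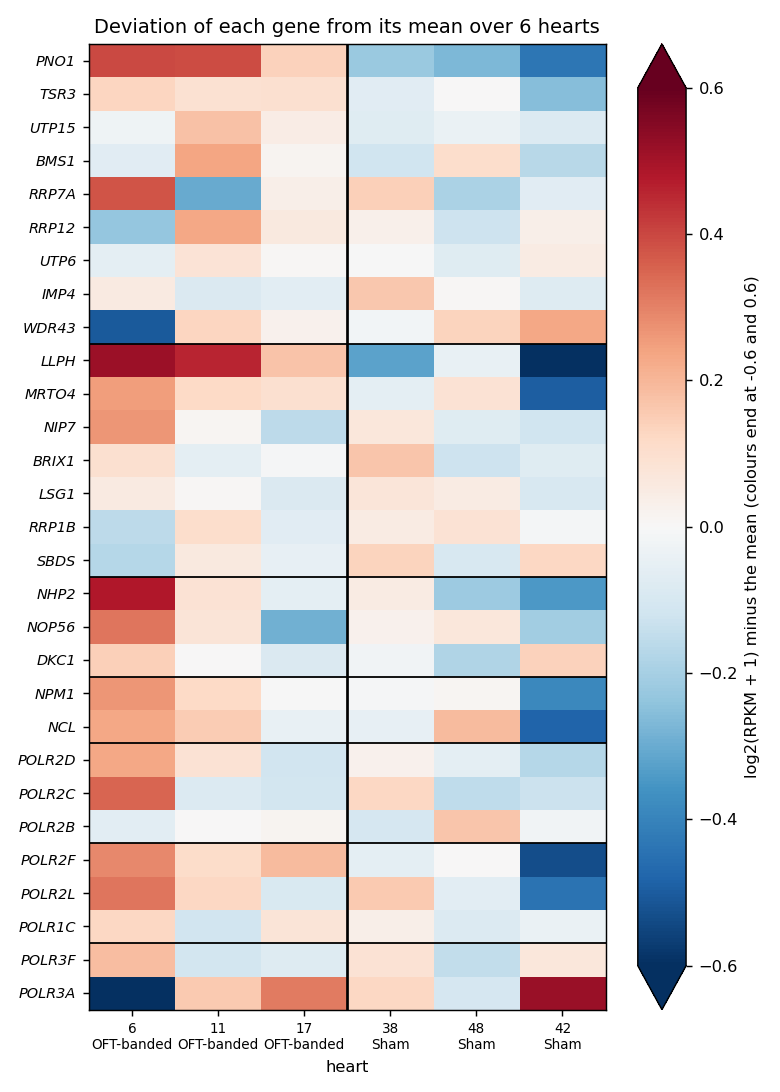
Deviation of 29 of the 30 tested genes (rows, grouped by role) from its mean over the 6 hearts, as log2(RPKM + 1), with OFT-banded hearts left of the thick line and sham hearts right of it. Red is above and blue below the mean, and colours end at -0.6 and 0.6. The column of heart 6 is mostly red and that of heart 42 mostly blue. WDR43 and POLR3A are furthest the other way round, and SBDS, RRP12 and UTP6 are so by less.

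The genes varied among themselves along 2 hearts, as the map of deviations shows. Heart 6, an OFT-banded heart, was the highest of the 6 in 17 of the 30 genes (56.7%), although over all tested transcripts it was the highest in 16.5% and the lowest in 42.2%. Heart 42, a sham heart, was the lowest in 14 of the 30 genes (46.7%), while over all tested transcripts it was the lowest in 16.7% and the highest in 36.0%. After median-ratio scaling between hearts, heart 6 was the highest in 19 of the 30 genes (28.4% of all tested transcripts) and heart 42 the lowest in 21 (25.1% of all). Heart 17 was the highest in none of them on either scale. POLR3A and WDR43 showed the reverse order, with heart 6 lowest and heart 42 highest. The median coefficient of variation within groups was 11.4% over the 30 genes and 12.6% over all tested transcripts. The study states that the sequenced RNA was partly degraded by repeated thawing and globin depletion. It gives RNA integrity as a range over the hearts and not for each heart, so the part of RNA quality was not tested.

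The same hearts stood at the ends of the red cell genes by mean log2 level, although heart 11 was the lowest by summed level. Of 12 tested erythroid genes 11 were lower by value in OFT-banded hearts, CA2 being the exception, and the summed level of the list was 6369.6 to 12479 RPKM in OFT-banded hearts, against 16640 to 42318 RPKM in sham hearts. Most of that sum came from HBE, an embryonic globin. The mean log2 level of the 12 genes, as a deviation from its mean over hearts, was -0.93, -0.55 and -0.01 in OFT-banded hearts, against -0.31, 0.56 and 1.25 in sham hearts. By this mean heart 6 was the lowest and heart 42 the highest, while hearts 17 and 38 overlapped. The globin HBZ is listed at 0 in every heart, and the depletion was aimed at HBAA, HBAD, HBB, HBG1, HBG2 and HBZ. HBG1 remained at 921, 762 and 1537 RPKM in OFT-banded hearts, against 1978, 1978 and 4492 RPKM in sham hearts. HBG1 and HBG2 are among the 12 genes of the mean, and the part of the depletion in it was not tested. GLRX and H1F0 in this list had been picked by the study on these hearts. With this mean erythroid level added to the model, again with the values in view, 16 of the 30 genes were higher, beside 51.3% of all tested transcripts, and the log2 fold changes were 0.44 for PNO1, 0.46 for LLPH and 0.16 for POLR2F. The summed level of the cardiomyocyte genes was likewise apart between the groups. Gene by gene, 5 of the 7 were higher by value and 2 lower, and in none were the groups apart. The summed level of 9 genes of cycling cells was 1748 to 1865 RPKM in OFT-banded hearts, against 1628 to 1759 RPKM in sham hearts. These sums overlapped, and 4 of the 9 genes were higher by value and 5 lower, at a median log2 fold change of -0.04. All OFT-banded hearts lay above all sham hearts in 3 of the 9 (MCM6, CDK1 and CCNB2), beside 5.23% of all tested transcripts. At an unadjusted p under 0.05 from limma 2 of the 9, MCM6 and CDK1, were higher (3.28% of all) and none was lower. The part of the cardiomyocyte and cycling cell levels in the results was not tested.

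Other genes of ribosome production, from lists that leave out the 32 genes, were set beside them. Of 32 tested assembly factors outside the set 23 were higher by value (36.8% of all tested transcripts), with a median log2 fold change of 0.09. At an unadjusted p under 0.05 from limma 2 were higher (3.28% of all) and none was lower. With the erythroid level as a covariate 16 were higher by value (51.3% of all), at a median of 0.02. The median was also 0.02 without heart 42. All OFT-banded hearts lay above all sham hearts in 3 of them (SURF6, ZNF622 and NOC2L), beside 5.23% of all tested transcripts. In 3 others (NVL, DDX49 and RBM19) all OFT-banded hearts lay below, beside 11% of all. The last 4 of these genes are named after their values were seen. SURF6, a nucleolar protein of the large subunit pathway, was at 93.8, 91.6 and 71.5 RPKM in OFT-banded hearts, against 49.95, 60.9 and 24.0 RPKM in sham hearts. These groups did not overlap, heart 42 being by far the lowest, and the log2 fold change was 1.01 (SE 0.32, limma adjusted p = 0.543). ZNF622, whose yeast counterpart acts on the large subunit in the cytoplasm, was at 39.1 ± 1.12 RPKM in OFT-banded and 33.4 ± 2.36 RPKM in sham hearts (SD, n = 3 each), with a log2 fold change of 0.22 (SE 0.09, limma adjusted p = 0.543).

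The genes of the cytosolic ribosomal proteins were higher by value in 43 of 51 tested, beside 36.8% of all tested transcripts. The median log2 fold change of the 51 was 0.10. Without heart 6, 27 of the 51 were higher (44.1% of all tested transcripts), and without hearts 6 and 42 only 14 were (50% of all). With the erythroid level as a covariate 8 of the 51 were higher (51.3% of all), at a median of -0.07. RPL22 was at 1481 ± 198 RPKM in OFT-banded and 969.7 ± 264 RPKM in sham hearts and RPL29 at 1140.2 ± 136 RPKM in OFT-banded and 936 ± 102 RPKM in sham hearts (SD, n = 3 each), with log2 fold changes of 0.64 and 0.28 (limma adjusted p = 0.543 for both).

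Of 10 tested factors that load RNA polymerases I and III or belong to them under older names, 6 were higher by value (36.8% of all). The median of the 10 was 0.03 and turned to -0.01 with each heart rescaled to the same sum. GTF3C6, a subunit of the polymerase III factor TFIIIC, was at 101 ± 12.1 RPKM in OFT-banded and 88.8 ± 4.86 RPKM in sham hearts (SD, n = 3 each). TWISTNB, the older name of a polymerase I subunit, was at 47.5 ± 1.96 RPKM in OFT-banded and 41.4 ± 5.75 RPKM in sham hearts (SD, n = 3 each). Of 8 tested genes of the RNA exosome and rRNA decay, which trim the precursor and remove its waste, 4 were higher by value (36.8% of all). EXOSC7 was at 59.5 ± 4.58 RPKM in OFT-banded and 50.4 ± 7.35 RPKM in sham hearts and EXOSC9 at 54.7 ± 3.06 RPKM in OFT-banded and 49.4 ± 4.06 RPKM in sham hearts (SD, n = 3 each). None of these 18 genes had an unadjusted p under 0.05 from limma, nor did an adjusted p pass.

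The list of regulators holds both activators and genes that oppose them, so its direction has no single meaning for ribosome production. Of 8 tested regulators of ribosome production 7 were lower by value (63.2% of all tested transcripts), with a median log2 fold change of -0.27 beside -0.07 over all tested transcripts, and in 4 of them (MXD4, MXD1, MYCN and RPS6KA1) all OFT-banded hearts lay below all sham hearts, beside 11% of all. MXD4, a partner of MAX that opposes MYC at its target genes, was at 7.66, 13.5 and 14.5 RPKM in OFT-banded hearts, against 15.9, 24.9 and 27.2 RPKM in sham hearts. Heart 6 was again lowest and heart 42 highest, and the log2 fold change was -0.89 (SE 0.28, unadjusted p = 0.0150, limma adjusted p = 0.543). MXD1, of the same family, was at 13.6 ± 0.362 RPKM in OFT-banded and 16.9 ± 2.03 RPKM in sham hearts (SD, n = 3 each), with a log2 fold change of -0.28 (SE 0.12, limma adjusted p = 0.543). MYCN, an activator of the MYC family, was at 22.7, 31.0 and 29.4 RPKM in OFT-banded hearts, against 33.3, 32.7 and 37.4 RPKM in sham hearts, with a log2 fold change of -0.32 (SE 0.14, limma adjusted p = 0.543). MYC, the best known activator of these genes, was at 33.8 ± 2.56 RPKM in OFT-banded and 32.8 ± 3.50 RPKM in sham hearts (SD, n = 3 each), with overlapping groups. MYCN, RPS6KA1 and MYC are named after their values were seen. With the erythroid level as a covariate the median of the 8 regulators was -0.08, and without hearts 6 and 42 it was -0.12.

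**Figure D4:**
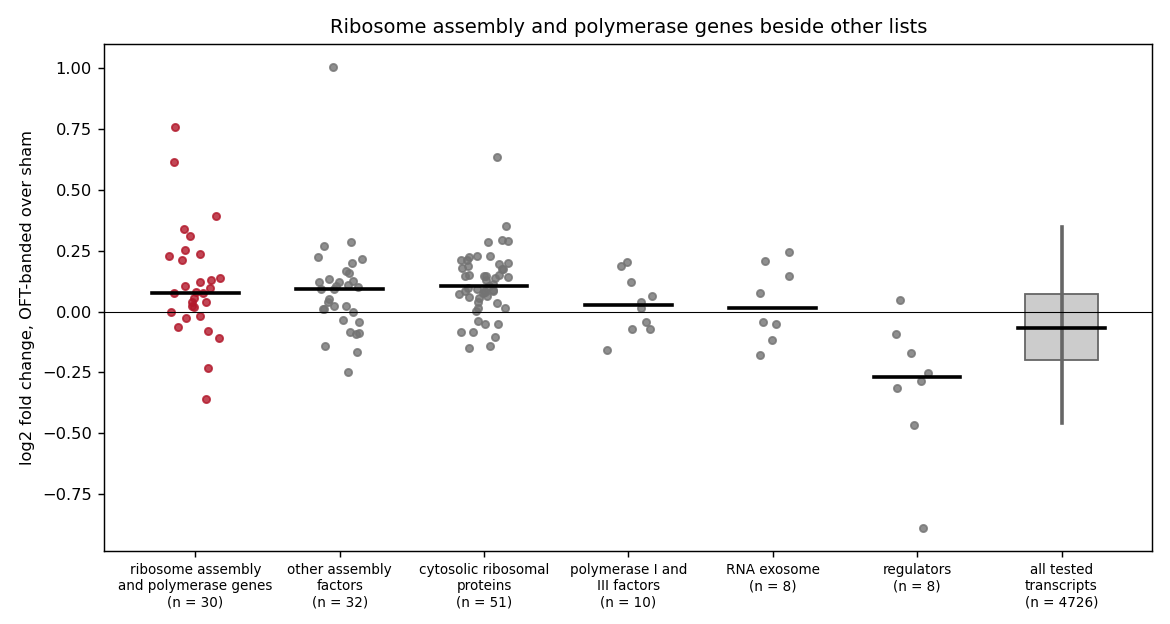
Log2 fold change, OFT-banded over sham (vertical axis), for the 30 tested ribosome assembly and polymerase genes (red) and for other lists of ribosome production (grey points), with the median of each as a black line. For all 4726 tested transcripts the box spans the quartiles and the line the 5th to 95th percentile. The medians are 0.08, 0.09 and 0.10 for the 30 genes, the other assembly factors and the ribosomal proteins, -0.27 for the regulators and -0.07 for all tested transcripts.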

How the data were processed

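Libraries were made from globin-depleted RNA of 6 hearts with a strand-specific kit and sequenced as paired ends. By the study's methods, the authors trimmed reads with scythe and sickle, aligned them with TopHat to galGal4, kept uniquely mapped reads, counted with HTSeq and deposited RPKM per RefSeq transcript (6919 transcripts); versions are not given in the sources used here. Columns name the group of a heart but not its numbered label, so hearts were assigned by group. Whether hearts came from separate incubations is not stated, and p-values measure the spread between these hearts.

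RPKM is no count, and transcript lengths were used only for microRNAs, to estimate depth. No count test was therefore run and intervals from reads are not given. Depth was estimated from whole-read steps of low microRNA values (at least 98.3% within 0.1 of a whole read). RPKM was transformed to log2(RPKM + 1), filtered at a mean of 1 and compared with limma 3.58.1 (R 4.3.3; intensity trend, Benjamini-Hochberg adjustment). Summaries and exact tests used Python 3.11.15 and scipy 1.17.1. The test was checked on simulated data.

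The genes and lists were chosen with earlier results of these data known. Named genes were PNO1 and LLPH, the 2 of each role with the smallest p per direction, the 3 highest and 3 lowest by mean, those below the filter, fixed abundant or catalytic members, and 2 per further list; 1 gene is counted but not reported here. Gene names were the same in RefSeq (bGalGal1.mat.broiler.GRCg7b) for 34 of 35 transcripts, and 1 was not found. Alternatives changed the pseudocount (0.1), the filter (none, or a mean of 5), the scaling between hearts (3 kinds) and the moderation, and left out each heart. With the values in view, an erythroid covariate, a fit without hearts 6 and 42 and ratios within hearts were added.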

Additional observations from a re-analysis of the deposited data

How the results depend on the processing

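No adjusted p passed under any setting, for all transcripts or for the 30 genes. No paired analysis was possible because the heart numbers of the columns are in no label. Of 20 single genes, 10 kept their sign under every alternative (PNO1, LLPH, POLR2F, NHP2, TSR3, MRTO4, NPM1, SBDS, RRP1B and POLR1C), although NHP2 came to 0.0052 and NPM1 to 0.0080 with the erythroid covariate and POLR1C to 0.0021 with the globin-free sum. The count of genes at an unadjusted p under 0.05 was 3, and became 5 with median-ratio scaling and 1 (PNO1) with the erythroid covariate (2 to 4 with each heart left out). PNO1 is in every one of these counts, and LLPH in all but that with the erythroid covariate. Of all 4726 tested transcripts 156 were higher at this level with the erythroid covariate, and 78 to 213 with each heart left out. The number of genes with no overlap was 6 (4 without PNO1 and LLPH), and 3 with the same sum and the globin genes left out (6 to 11 with each heart left out). The share of all tested transcripts was 5.23%, 3.37% and 6.90% to 12.2% in the same order. Among all tested transcripts at an unadjusted p under 0.05, 155 were higher and 250 lower, against 231 higher and 176 lower with median-ratio scaling; the median of all tested transcripts moved from -0.07 to -0.0064.

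With the erythroid covariate, added with the values in view, the median log2 fold change was -0.054 for RNA polymerase II subunits, 0.011 for shared subunits and -0.015 for the nucleolar proteins, and single genes changed sign, to 0.022 for WDR43, -0.054 for POLR2D, -0.14 for POLR2C, 0.039 for POLR2B, 0.16 for POLR3A, -0.20 for NOP56, -0.16 for POLR2L and -0.038 for NCL. Without hearts 6 and 42, likewise added, the median was 0.0036 for shared subunits and 0.021 for the nucleolar proteins, and sign changes gave 0.018 for WDR43, -0.082 for POLR2C, 0.22 for POLR3A, -0.15 for NOP56, -0.030 for POLR2L and -0.014 for NCL. Median-ratio scaling turned IMP4 to 0.0025, POLR2B to 0.036 and POLR3F to 0.061. With each heart left out in turn, the ranges that crossed zero were -0.12 to 0.0026 for IMP4, -0.044 to 0.19 for POLR2C, -0.087 to 0.048 for POLR2B, -0.61 to 0.054 for POLR3A, -0.096 to 0.051 for POLR3F and -0.066 to 0.24 for NOP56. Medians by role then ranged from -7.7e-05 to 0.16 for small subunit, -0.022 to 0.11 for large subunit and -0.020 to 0.24 for small nucleolar RNP genes, and from -0.0041 to 0.19 for RNA polymerase II and -0.078 to 0.054 for RNA polymerase III subunits, and the median of all 30 genes from 0.053 to 0.14. The cause of these changes was not tested.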

Other observations

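The nearest measured neighbours on the chromosome, by the order of protein-coding genes in RefSeq, were looked up after the data were seen. This was done for PNO1, LLPH, POLR2F, NHP2, TSR3 and MRTO4. PPP3R1, the regulatory subunit of calcineurin and a neighbour of PNO1, was at 101 ± 9.85 RPKM in OFT-banded and 105 ± 5.65 RPKM in sham hearts (SD, n = 3 each), with overlapping groups and a log2 fold change of -0.06 (SE 0.10, limma adjusted p = 0.814). HMGA2, an architectural chromatin protein and a neighbour of LLPH, was at 17.7, 49.8 and 49.8 RPKM in OFT-banded hearts, against 25.7, 60.5 and 77.5 RPKM in sham hearts. Hearts 6 and 38 were low and heart 42 high in HMGA2, and its log2 fold change was -0.47 (SE 0.51, limma adjusted p = 0.708). GNPTG, beside TSR3, was at 41.5, 42.3 and 41.96 RPKM in OFT-banded hearts, against 40.88, 34.69 and 37.33 RPKM in sham hearts. These groups did not overlap, at a log2 fold change of 0.15 (SE 0.09, limma adjusted p = 0.571). SOX10, beside POLR2F, lay below the filter. It was at 0.08, 0.28 and 0.17 RPKM in OFT-banded hearts, against 0, 0.03 and 0 RPKM in sham hearts. BRD8 beside NHP2 (-0.12) and EMC1 beside MRTO4 (0.04) had overlapping groups. No members of the set were neighbours of each other.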
